A study of Mus musculus with 6 samples.

Results

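The glucocorticoid receptor and 8 genes that supply its ligand or respond to it were followed in mouse liver during concanavalin A hepatitis. The members were taken by name from the deposited expression table, and all 9 were found among its 14669 rows, each on 1 row: Nr3c1, Hsd11b1, Serpina6, Fkbp5, Tsc22d3, Zfp36, Sgk1, Klf9 and Lpin1. Male wild-type C57BL/6J mice, 8 weeks old, had received 25 µg of plko plasmid dissolved in saline (2.5 ml) through hydrodynamic injection, a fast, large-volume infusion by which hepatocytes take up DNA. It carried a hairpin against the dynein adaptor gene Bicd2 (3 libraries, called sh1, sh3 and sh6) or a scrambled hairpin (3 libraries, called Sc3, Sc4 and Sc5). On day 3 both groups were given concanavalin A, a lectin that activates T cells, by vein (15 mg/kg), and the organ was collected after 6 h. Every mouse had received concanavalin A, so the comparison is between plasmids, not of hepatitis with health. Whether each library is a separate animal is not stated in the labels, so p-values measure only the spread between these libraries, which may be technical.

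Glucocorticoids are adrenal steroids that travel in plasma on a carrier protein made by hepatocytes. Inside liver cells an oxidoreductase regenerates the active steroid from its inert ketone, and the steroid then binds a receptor held ready by the HSP90 chaperone. The receptor moves to the nucleus, induces genes of glucose and lipid metabolism, and restrains inflammatory transcription, partly by inducing proteins that block NF-kB and AP-1 or destabilise cytokine mRNAs. Many of its sites lie in enhancers far from the genes they serve.

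The DNA element of the receptor is shown first, because the member genes are known for responding to it. Promoter windows of 250 bases upstream of annotated starts were taken from RefSeq (GRCm38.p6), which gave 14 windows for 7 members. No window was available for Nr3c1 or Serpina6, so their promoters were not searched. The windows were searched on both strands for the palindromic element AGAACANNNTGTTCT and for its single arm AGAACA. The full element was in 1 of the 14 windows, at a start of Sgk1, and in 3 of all 32851 windows (0.00913%). Single arms were in 5 of the 14 windows, of Sgk1 (3 windows), Lpin1 and Tsc22d3, against 16.1% of all windows. The stretches below run 5′ to 3′ on the strand of the gene, with the elements in capitals: Sgk1 at chr10:21993640-21993889 (plus strand), Lpin1 at chr12:16610967-16611216 (minus strand) and the part of a Tsc22d3 window that no annotated exon covers, chrX:140600660-140600772 (minus strand).
Sgk1: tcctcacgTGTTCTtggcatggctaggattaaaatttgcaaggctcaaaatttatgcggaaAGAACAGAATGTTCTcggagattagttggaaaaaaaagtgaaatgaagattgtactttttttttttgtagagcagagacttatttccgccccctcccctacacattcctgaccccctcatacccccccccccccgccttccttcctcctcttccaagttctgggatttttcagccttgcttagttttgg
Lpin1: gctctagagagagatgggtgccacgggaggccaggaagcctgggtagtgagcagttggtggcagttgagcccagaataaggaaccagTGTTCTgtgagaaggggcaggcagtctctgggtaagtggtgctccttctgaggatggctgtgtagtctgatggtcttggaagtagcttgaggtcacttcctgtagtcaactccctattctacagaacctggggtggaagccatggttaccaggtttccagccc
Tsc22d3: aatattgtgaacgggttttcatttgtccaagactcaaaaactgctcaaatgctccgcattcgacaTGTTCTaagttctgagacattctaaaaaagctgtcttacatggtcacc
In Sgk1 the full element was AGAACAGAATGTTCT, beginning 189 bases before that start, and a further single arm stood 242 bases before it. A match of letters is a description and not a bound site, and the gene-level values add up all starts of Sgk1 (6 windows) and Tsc22d3 (3 windows).

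Nr3c1, which encodes the receptor, was lower in all 3 shBicd2 libraries on the deposited scale. Its level, as fragments per kilobase of gene scaled to library size (FPKM), was 15.2 (Sc3), 11.3 (Sc4) and 15.9 (Sc5), against 8.39 (sh1), 10.7 (sh3) and 7.71 (sh6). As deposited the groups did not overlap, although sh3 and Sc4 lay next to each other. Median-of-ratios size factors, an alternative scaling, divide Sc4 by 1.054 and sh3 by 0.894, which puts sh3 above Sc4. The shBicd2 mean of 8.94 ± 1.58 FPKM was 63.2% of the scramble mean of 14.1 ± 2.45 FPKM (SD, n = 3). The log2 fold change was -0.61 ± 0.19 (SE; 95% interval -1.05 to -0.16), on the scale of log2(FPKM + 1), shBicd2 minus scramble. It did not pass the threshold of 0.05 after adjustment over the 10152 genes tested with limma (adjusted p = 0.217). The unadjusted limma p was 0.0147 as deposited and 0.0471 with size factors. An exact two-sided permutation test of the deposited FPKM gave p = 0.1, the smallest that 3 against 3 allows. Between 1122 and 2083 reads stood behind each value. In whole liver, fewer cells of a type and less RNA per cell cannot be told apart.

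Of the 9 members, 7 had negative fold changes (58.6% of all genes did) and 2 positive ones, with a median of -0.61 against -0.06 over all genes tested. None passed the adjusted threshold, as was true of all 10152 genes (0% called; 1593 genes, 15.7%, lay below an unadjusted p of 0.05). Nr3c1 and Klf9 were below an unadjusted p of 0.05 and lower, 2 of 9 beside 12.7% of all genes. The same pair had groups that did not overlap, 2 of 9 beside 18.7% of all genes in that direction and 24.4% in either, so neither count stands far from the background. No member was higher with no overlap, where 5.7% of all genes were. The balance of the background rests on the scaling: 1291 genes were lower and 302 higher at an unadjusted p below 0.05 as deposited, 874 and 633 with size factors, and 817 and 652 with quantile normalization. With limma's array weights, which count sh1 at 0.18 and sh3 at 0.28 against 4.67 for sh6, Nr3c1 (adjusted p = 0.00464), Sgk1 (0.0129) and Zfp36 (0.0375) passed as lower, 3 of 9 beside 18.3% of all genes (26.7% in either direction). Without sh1 the median of the members was -0.23.

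**Figure D1:**
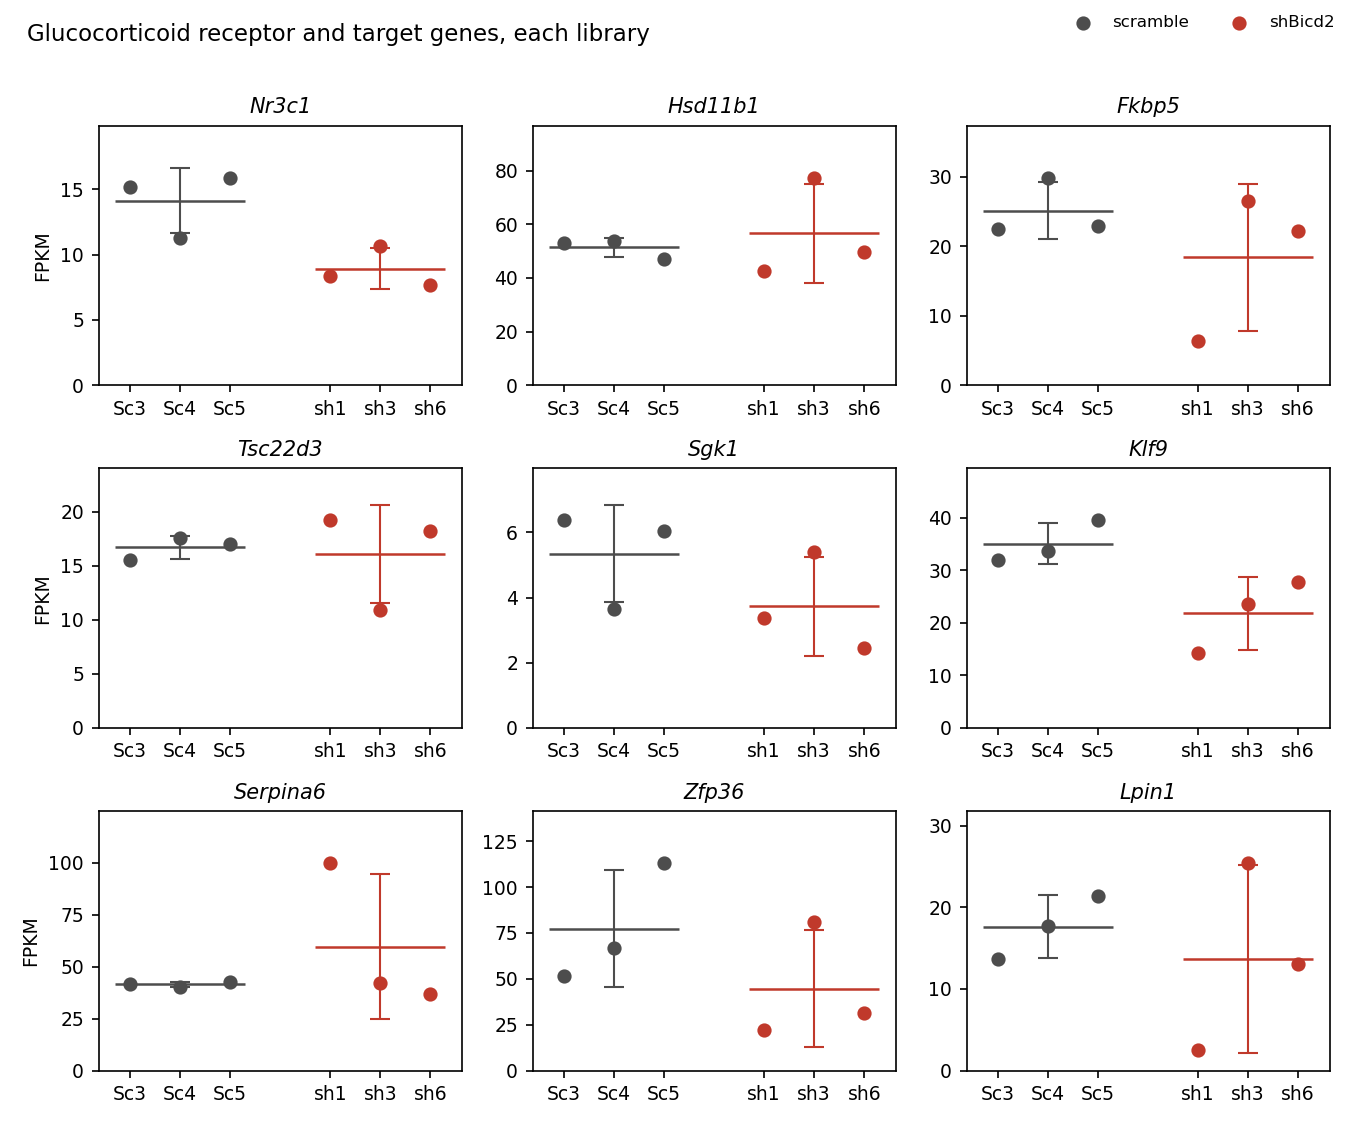
FPKM of the 9 members (panels) in each library, scramble in grey and shBicd2 in red, with lines at the group mean and bars of 1 SD (n = 3). Nr3c1 and Klf9 are the panels in which all shBicd2 points lie below all scramble points, while sh1 stands far from the other libraries for Fkbp5, Serpina6 and Lpin1.

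The libraries themselves differed in ways that touch these values. Recovered depth ran from 16030000 to 18930000 reads a library and overlapped between groups. Across tested genes, which are not independent replicates, scramble libraries correlated at 0.981 to 0.988 with each other and shBicd2 libraries at 0.905 to 0.963. Against scramble, sh1 was at 0.893 to 0.913, sh6 at 0.947 to 0.972 and sh3 at 0.973 to 0.976. Library sh3 was thus closer to scramble than to the other shBicd2 libraries (0.905 to 0.963). Results without sh3 leave out the shBicd2 library nearest to scramble. Bicd2, the targeted gene, measured 4.14, 3.43 and 3.13 FPKM in scramble and 3.61 (sh1), 2.57 (sh3) and 2.97 FPKM (sh6), with sh1 inside the scramble range. It averaged 3.56 ± 0.518 FPKM against 3.05 ± 0.526 FPKM with its hairpin (SD, n = 3; adjusted p = 0.624), so a knockdown was not detectable in whole liver, and the groups are those of the labels. Summed hepatocyte markers were at 25914 to 31778 FPKM in scramble and 31693 to 39478 FPKM in shBicd2, mostly from Alb. All listed but Tf, 9 of the 10, were in the table under the symbol searched. Of these 9, 4 had lower means in shBicd2 (Apob, Fgb, Cps1 and Hnf4a). Ttr, Apoa1 and Serpina1c were higher with no overlap, 3 of 9 beside 5.7% of all genes.

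The supply of steroid to the receptor was described by 2 members. Serpina6 (chromosome 12, 103646630 to 103657212, GRCm38), which encodes the plasma carrier of corticosteroids, measured 41.9, 40.3 and 42.4 FPKM with the scrambled hairpin against 99.8 (sh1), 42.3 (sh3) and 37.0 FPKM (sh6). Its level was nearly the same in 5 libraries, and sh1 alone was high. The log2 fold change of 0.37 ± 0.36 (95% interval -0.47 to 1.21; adjusted p = 0.647) became -0.07 without sh1 and 0.64 without sh6. Hsd11b1 (chromosome 1, 193221634 to 193264075), the enzyme that regenerates active glucocorticoid, measured 53.2, 53.7 and 47.2 FPKM with the scrambled hairpin against 42.6 (sh1), 77.4 (sh3) and 49.8 FPKM (sh6). Here the high library was sh3 and the low one sh1, and the groups overlapped. Its log2 fold change was 0.09 ± 0.24 (95% interval -0.46 to 0.65; adjusted p = 0.874), and -0.15 without sh3, so no direction can be given.

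Genes that activate, break down or export glucocorticoids were read from a list of 13, of which 11 were in the table. The symbols Hsd11b2 and H6pdh matched no row, and other names for these genes were not searched. The 9 genes tested had a median log2 fold change of 0.19, or 0.03 without sh1. None passed the adjusted threshold, 1 was higher at an unadjusted p below 0.05 (2.97% of all genes) and 0 were lower (12.7% of all genes). Akr1d1, the reductase that begins the clearance of steroids with a keto-ene ring, measured 12.6, 11.9 and 15.8 FPKM with the scrambled hairpin against 42.7 (sh1), 24.0 (sh3) and 14.9 FPKM (sh6; adjusted p = 0.307). Its sh1 and sh3 values lay above the scramble range and its sh6 value inside it. Cyp3a11, a steroid hydroxylase with near-identical copies whose reads are uncertain, was at 276 ± 46.9 and 378 ± 60.3 FPKM (SD, n = 3; adjusted p = 0.33). Abcb1b, an efflux pump, was at 1.45 ± 0.185 and 0.733 ± 0.589 FPKM (adjusted p = 0.336), with its lowest value, 0.206 FPKM, in sh1.

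Chaperones and cofactors of the receptor were read as a list. All 21 listed genes were in the table, and the mineralocorticoid receptor gene Nr3c2 fell below the filter of a mean of 1 FPKM. The 20 tested genes had a median of -0.13, 14 of them negative (58.6% of all genes were), with 0 past the adjusted threshold and 1 lower at an unadjusted p below 0.05, a smaller share than the 12.7% of all genes. That gene was Hsp90aa1, the stress-inducible HSP90, at 89.0 ± 2.57 and 59.0 ± 10.7 FPKM (SD, n = 3; log2 fold change -0.60 ± 0.18; adjusted p = 0.2), with all 3 shBicd2 values below the scramble values. The coactivator genes Ncoa3 (-0.39 ± 0.17; adjusted p = 0.329) and Ep300 (-0.32 ± 0.15; adjusted p = 0.361) had the next smallest p. Fkbp5 and Fkbp4, which are among the immunophilins of the receptor complex, went opposite ways in sh1. Fkbp4, a co-chaperone that helps carry the receptor to the nucleus and was picked after its values were seen, measured 18.4, 15.6 and 16.5 FPKM with the scrambled hairpin against 57.8 (sh1), 17.0 (sh3) and 19.9 FPKM (sh6; adjusted p = 0.488).

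Fkbp5 (chromosome 17, 28399094 to 28517527) encodes an immunophilin that lowers the affinity of the receptor for its ligand and is itself induced by the receptor. It measured 22.5, 29.9 and 23.0 FPKM with the scrambled hairpin against 6.42 (sh1), 26.6 (sh3) and 22.2 FPKM (sh6). Only sh1 was far from the rest, while sh6 lay just under and sh3 inside the scramble range. The log2 fold change was -0.62 ± 0.47 (95% interval -1.73 to 0.49; adjusted p = 0.559), -0.03 without sh1 and -0.98 without sh3. The circadian gene Per1, another direct target that was picked after its values were seen, likewise measured 17.4, 16.5 and 21.6 FPKM with the scrambled hairpin against 2.96 (sh1), 25.8 (sh3) and 15.0 FPKM (sh6). Its log2 fold change was -0.70 ± 0.63 (adjusted p = 0.627), and 0.10 without sh1.

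**Figure D2:**
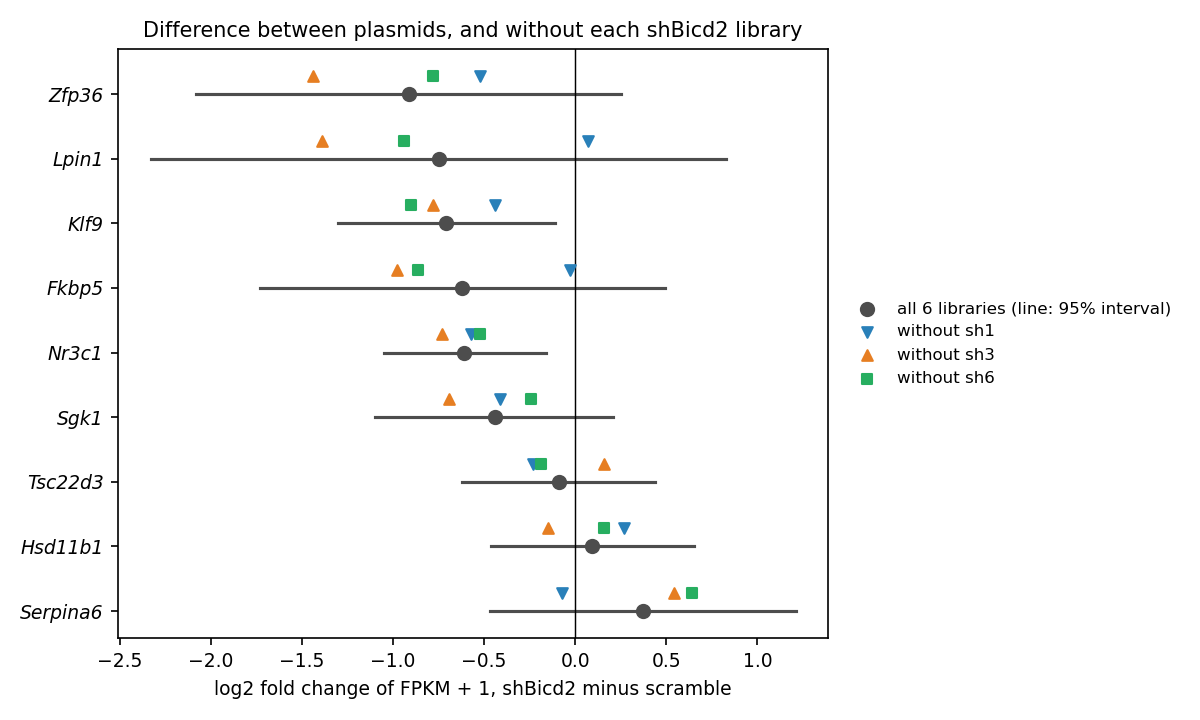
Log2 fold change of FPKM + 1, shBicd2 minus scramble, for each member: the circle with its 95% interval is from all 6 libraries, and the smaller marks are the values without sh1, sh3 or sh6. Intervals of Nr3c1 and Klf9 lie below 0 before adjustment, and the values of Lpin1 and Serpina6 cross 0 without sh1, as those of Tsc22d3 and Hsd11b1 do without sh3.

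The anti-inflammatory targets among the members, Tsc22d3 and Zfp36, did not share a pattern. Tsc22d3 (chromosome X, 140539528 to 140600659) encodes GILZ, a leucine zipper protein that binds NF-kB and AP-1. It measured 15.5, 17.6 and 17.0 FPKM with the scrambled hairpin against 19.2 (sh1), 10.9 (sh3) and 18.2 FPKM (sh6). Library sh1, which was low for Fkbp5 and Per1, was the highest here, and sh3 was the lowest. The log2 fold change was -0.09 ± 0.23 (95% interval -0.62 to 0.44; adjusted p = 0.878), and 0.16 without sh3.

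Zfp36 (chromosome 7, 28376784 to 28380253) encodes TTP, a zinc finger protein that binds AU-rich elements and speeds the decay of cytokine mRNAs; inflammatory signals induce it as well as glucocorticoids. It measured 51.7, 67.0 and 113 FPKM with the scrambled hairpin against 21.9 (sh1), 80.8 (sh3) and 31.5 FPKM (sh6). Libraries sh1 and sh6 lay below the scramble range and sh3 inside it. The means were 77.1 ± 31.7 and 44.7 ± 31.6 FPKM (SD, n = 3), with a log2 fold change of -0.91 ± 0.49 (95% interval -2.08 to 0.25; adjusted p = 0.411). It was -0.52 without sh1 and -1.44 without sh3.

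The element that TTP reads is shown by Tnf, whose mRNA it is best known to bind. In the longest protein-coding transcript of each gene (GENCODE M21), the nonamer TTATTTATT was searched on the sense strand. It occurred 5 times, overlaps counted, in the 1639-base transcript of Tnf and 1 time in that of Zfp36 itself. Of the 14 listed TTP-bound mRNAs 7 had it, against 7.99% of 21877 transcripts, although the list was drawn up for such binding. The transcripts searched for Myc, Il1b, Il6, Il10, Ccl2, Ccl3 and Ier3 did not hold it. The 30 bases of Tnf from base 1312 hold 5 ATTTA pentamers, here in capitals.
Tnf: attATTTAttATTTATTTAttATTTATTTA

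The mRNAs that TTP is known to bind were read beside Zfp36. Of 14 listed, 13 were in the table and 11 were tested, and the fold change was below 0 for all 11, median -1.51, or -0.88 without sh1. None passed the adjusted threshold, and 6 were lower at an unadjusted p below 0.05, beside 12.7% of all genes. That count was 3 with size factors and 4 with quantile normalization, where 874 and 817 of all genes were lower, against 1291 as deposited. Over the libraries left out it ran from 2 (without Sc3, sh1 or sh6) to 10 (without sh3). Of all genes, 714 were lower without Sc3, 1445 without sh1, 1199 without sh6 and 1540 (15.2%) without sh3. Fos, an AP-1 subunit, had scramble values of 6.35 to 30.5 FPKM and shBicd2 values of 1.28 to 4.76 FPKM (log2 fold change -2.07 ± 0.57; adjusted p = 0.198). Myc, a growth regulator, was at 20.4 ± 8.37 and 7.08 ± 5.38 FPKM (adjusted p = 0.205), and Il1b, the interleukin, at 4.98 ± 0.738 and 2.36 ± 1.66 FPKM (adjusted p = 0.245). All 11 were below the scramble range in sh1 and in sh6, against 41.5% and 37.1% of all genes, and 4 were in sh3, against 56.1%. Tnf itself, with 2.67, 3.27 and 2.44 FPKM for the scrambled hairpin against 1.44 (sh1), 3.71 (sh3) and 1.51 FPKM (sh6), overlapped between groups (adjusted p = 0.618). Without sh3, 5 of the 11 passed the adjusted threshold as lower, beside 2.55% of all genes.

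Other genes through which glucocorticoids restrain inflammation were mostly negative too. All 14 listed were in the table, 11 were tested, and 10 of these were negative, with a median of -1.23. None passed the adjusted threshold, 6 were lower at an unadjusted p below 0.05 (12.7% of all genes), and 4 were lower with no overlap between groups (18.7%). The 6 became 3 with size factors and 4 with quantile normalization, where 874 and 817 of all genes were lower, against 1291 as deposited. Over the libraries left out the count ran from 2 (without Sc4, Sc5 or sh6) to 9 (without sh3). Of all genes, 960 were lower without Sc4, 699 without Sc5, 1199 without sh6 and 1540 (15.2%) without sh3. Slpi, a protease inhibitor of secretions, measured 13.5, 15.0 and 22.0 FPKM with the scrambled hairpin against 4.27 (sh1), 7.04 (sh3) and 3.89 FPKM (sh6; log2 fold change -1.56 ± 0.26; adjusted p = 0.152). All 3 shBicd2 values were far below the scramble values. Il1r2, the decoy interleukin receptor, averaged 10.6 ± 2.08 and 3.39 ± 3.09 FPKM (SD, n = 3; adjusted p = 0.204). Il1rn, the receptor antagonist, was at 45.2 ± 4.91 and 17.5 ± 17.3 FPKM (SD, n = 3; adjusted p = 0.244), and its sh3 value of 37.1 FPKM lay next to the scramble range.

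Dusp1, a phosphatase that switches off MAP kinases and was picked after its values were seen, measured 18.9, 14.2 and 34.5 FPKM with the scrambled hairpin against 4.56 (sh1), 23.6 (sh3) and 5.09 FPKM (sh6; adjusted p = 0.373). As for Zfp36, sh1 and sh6 lay below the scramble range and sh3 inside it. Without sh3, 8 of the 11 anti-inflammatory genes passed the adjusted threshold as lower, Dusp1, Slpi, Il1r2 and Il1rn among them, beside 2.55% of all genes, but 0 of the 9 members. Several of these genes are also made by neutrophils. The 6 neutrophil markers, all in the table, had lower means in shBicd2. Their summed level was 361 to 492 FPKM in scramble and 146 to 414 FPKM in shBicd2, lowest in sh6. That sum was mostly S100a9 and S100a8, which overlapped between groups. Ly6g, Mmp8 and Csf3r were lower with no overlap, sh1 included, 3 of 6 beside 18.7% of all genes. The 5 monocyte markers summed to 64.9 to 87.0 FPKM in scramble and to 43.6 to 141 FPKM in shBicd2, highest in sh1, where Lyz2 alone was at 117 FPKM. Of these 5, 4 had lower means in shBicd2. Chil3 and F13a1 were lower with no overlap, sh1 included, 2 of 5 beside 18.7% of all genes. None of these 11 markers had a mean under 0.1 FPKM. The part of either cell type in these results was not tested.

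Sgk1, Klf9 and Lpin1 are metabolic or signalling targets. Sgk1 (chromosome 10, 21882184 to 21999903), the kinase gene whose upstream window held the full element, measured 6.37, 3.64 and 6.04 FPKM with the scrambled hairpin against 3.36 (sh1), 5.40 (sh3) and 2.44 FPKM (sh6). It was the least abundant member, at 226 to 556 reads a library, and the groups overlapped through Sc4 and sh3. The log2 fold change was -0.44 ± 0.28 (95% interval -1.10 to 0.21; adjusted p = 0.475), -0.24 without sh6 and -0.69 without sh3 (adjusted p = 0.161).

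Klf9 (chromosome 19, 23141226 to 23168134) encodes a zinc finger transcription factor that is a direct target of the receptor in many tissues. It measured 32.0, 33.7 and 39.5 FPKM with the scrambled hairpin against 14.2 (sh1), 23.6 (sh3) and 27.7 FPKM (sh6). The groups did not overlap (exact two-sided permutation p = 0.1), and sh1 was the lowest. The means were 35.1 ± 3.93 and 21.8 ± 6.95 FPKM (SD, n = 3), the latter 62.2% of the former, with a log2 fold change of -0.71 ± 0.25 (95% interval -1.30 to -0.11; adjusted p = 0.255). It was -0.44 without sh1.

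Lpin1 (chromosome 12, 16535669 to 16610966) encodes a phosphatidate phosphatase of triglyceride synthesis that also acts as a coactivator in fasting liver. It measured 13.7, 17.7 and 21.4 FPKM with the scrambled hairpin against 2.47 (sh1), 25.4 (sh3) and 13.1 FPKM (sh6). The shBicd2 libraries thus spanned the whole scramble range, with sh1 far under it and sh3 over it. The log2 fold change was -0.75 ± 0.67 (95% interval -2.33 to 0.83; adjusted p = 0.62), and it turned to 0.07 without sh1 and was -1.39 without sh3.

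Close relatives of the members were read beside them, 16 genes of which 15 were tested. Their median was -0.30, with 0 past the adjusted threshold, 6 lower (12.7% of all genes) and 1 higher (2.97%) at an unadjusted p below 0.05. With no overlap 7 were lower (18.7% of all genes) and 2 higher (5.7%), Tsc22d1 and Serpina1a. Lpin2, the more abundant lipin of liver, averaged 48.5 ± 11.5 FPKM against 19.8 ± 6.39 FPKM with shBicd2 (SD, n = 3; log2 fold change -1.28 ± 0.29; adjusted p = 0.169), and unlike Lpin1 it was below the scramble range in every shBicd2 library. Zfp36l2, a relative of Zfp36 that binds the same kind of element, was at 31.3 ± 10.3 and 11.6 ± 4.58 FPKM (adjusted p = 0.17), with no overlap. Tsc22d2, a relative of Tsc22d3, was at 8.75 ± 1.48 and 3.66 ± 1.65 FPKM (adjusted p = 0.182), also with no overlap. Whether a relative differed more than the member itself was not tested.

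Metabolic and circadian genes that glucocorticoids induce in liver spread widely. Of 30 listed symbols, 2 of them for glucose-6-phosphatase, 29 were in the table and tested, with a median of -0.46 that became -0.07 without sh1. None passed the adjusted threshold, and 4 were lower and 2 higher at an unadjusted p below 0.05, where 12.7% and 2.97% of all genes were, so the lower count is near the background. It was 2 with size factors, where 874 of all genes were lower, against 1291 as deposited. Over the libraries left out it ran from 2 (without Sc5, 699 of all genes) to 12 (without sh3, 1540 of all genes, or 15.2%). Pdk4, the kinase that shuts off pyruvate oxidation in fasting, measured 14.1, 8.43 and 17.1 FPKM with the scrambled hairpin against 0.686 (sh1), 2.06 (sh3) and 2.24 FPKM (sh6; log2 fold change -2.42 ± 0.33; adjusted p = 0.152). All 3 shBicd2 values were far below the lowest scramble value. Foxo3, a transcription factor of fasting, was at 9.69 ± 0.458 and 5.41 ± 1.35 FPKM (SD, n = 3; adjusted p = 0.181). Klf15, a factor of amino acid breakdown, went the other way, with 29.1, 20.4 and 23.4 FPKM for the scrambled hairpin against 51.9 (sh1), 35.2 (sh3) and 38.7 FPKM (sh6; log2 fold change 0.76 ± 0.21; adjusted p = 0.198), again with no overlap. Without sh3, 4 of the 29 passed the adjusted threshold, all lower and Pdk4 and Foxo3 among them, beside 2.85% of all genes in either direction.

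Pck1, Tat, Igfbp1 and Angptl4 of the same list, picked after their values were seen, gave no common direction among themselves. Over the whole list 22 of the 29 fold changes were negative (58.6% of all genes were) and 7 positive. Pck1, the first committed enzyme of gluconeogenesis, was at 674 ± 76.7 and 766 ± 156 FPKM (SD, n = 3; adjusted p = 0.704). Tat, tyrosine aminotransferase, measured 924, 857 and 1041 FPKM with the scrambled hairpin against 511 (sh1), 1703 (sh3) and 1120 FPKM (sh6; adjusted p = 0.94). Its low and high values were thus both in the shBicd2 group, as those of Lpin1 were. Igfbp1, a secreted binding protein of insulin-like growth factors, measured 634, 462 and 1214 FPKM with the scrambled hairpin against 9.41 (sh1), 622 (sh3) and 120 FPKM (sh6; adjusted p = 0.345). Angptl4, an inhibitor of lipoprotein lipase, was at 4.04 FPKM in sh1, 25.1 FPKM in sh3 and 56.0 FPKM in sh6, against 43.5 to 50.6 FPKM in scramble (adjusted p = 0.449). Of the 29 genes, 21 were below the scramble range in sh1, against 41.5% of all genes, and 13 were above it in sh3, against 15.3%.

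**Figure D3:**
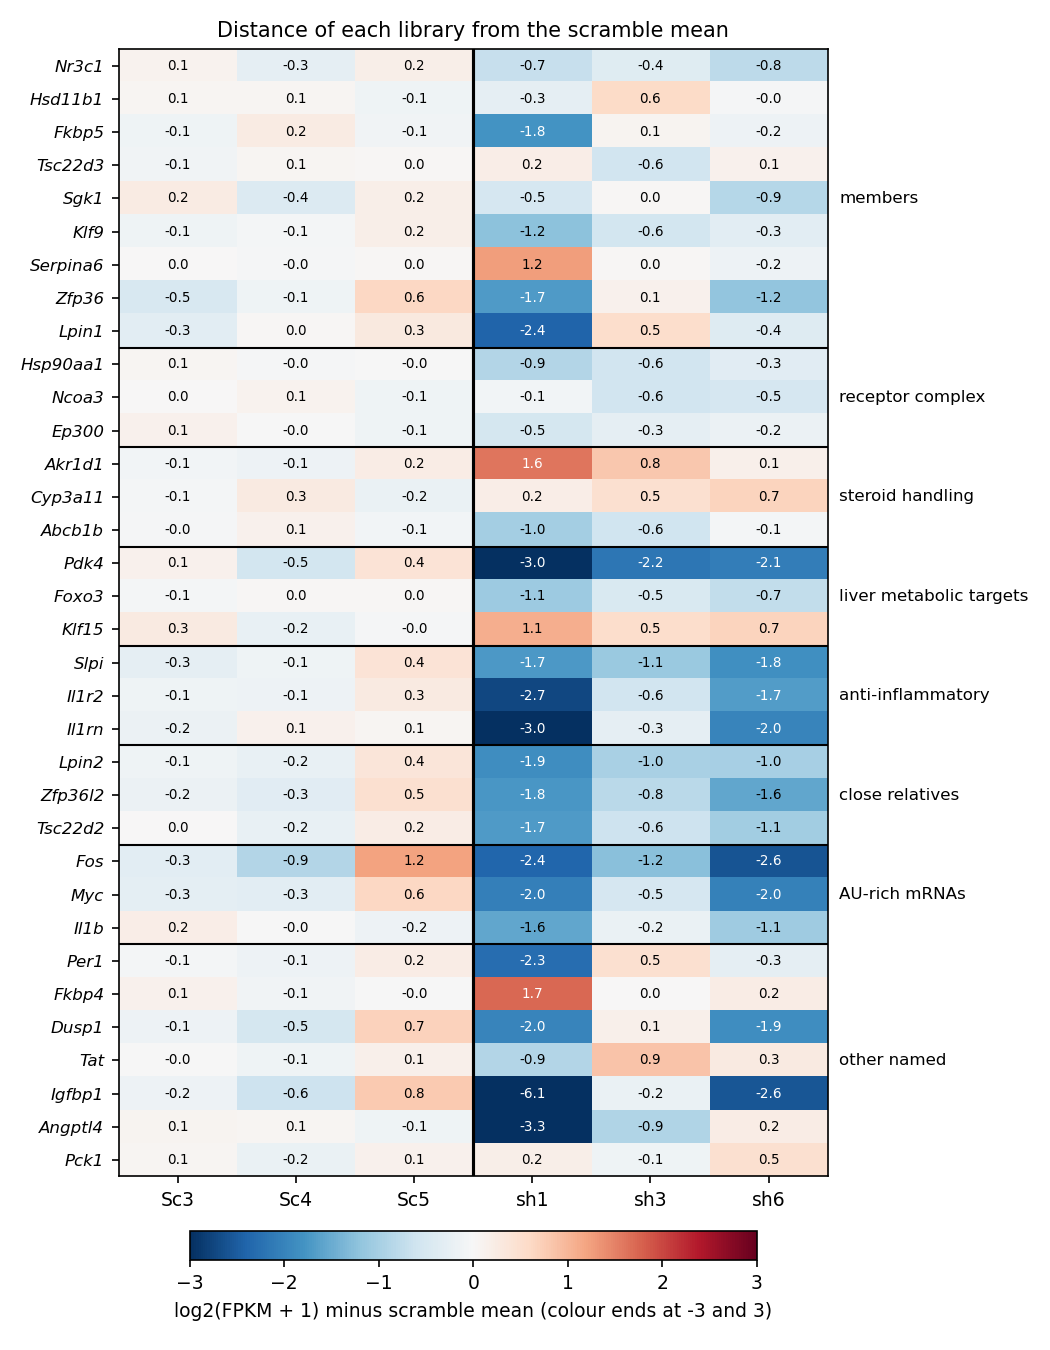
Distance of each library from the scramble mean on the log2(FPKM + 1) scale for the members and the named genes of each list, blue for lower and red for higher. The column of sh1 holds dark blue for Igfbp1, Angptl4, Il1rn, Pdk4 and Lpin1 together with red for Serpina6, Fkbp4 and Akr1d1, and sh3 is close to 0 for Fkbp5, Zfp36 and Dusp1.

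Read by library, the members fell into several arrangements. Nr3c1 and Klf9 were below the scramble range in sh1, sh3 and sh6. Fkbp5, Sgk1 and Zfp36 were below it in sh1 and sh6 and inside it in sh3, and Lpin1 was below it in sh1 and sh6 and above it in sh3. In sh1, 7 members were below the range and 2 above, against 41.5% and 39.2% of all genes. In sh6, 7 were below, against 37.1%, and 1 above, against 32.9%, and in sh3 only 3 were below, against 56.1%. These positions are on the deposited scale, where the size factor of sh3 was 0.894 and the others were 1.008 to 1.054. In sh6, Fkbp5 (22.2 FPKM) and Lpin1 (13.1 FPKM) lay just under the lowest scramble values (22.5 and 13.7 FPKM). The median distance of the members from the scramble mean was -0.68 in sh1, 0.04 in sh3 and -0.32 in sh6, where all tested genes had -0.02, -0.18 and -0.01.

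By level per length, the order in scramble was Zfp36, Hsd11b1, Serpina6, Klf9, Fkbp5, Lpin1, Tsc22d3, Nr3c1 and Sgk1, from a mean of 77.1 down to 5.35 FPKM. Neighbours whose scramble values overlapped were Zfp36 with Hsd11b1, Lpin1 with Tsc22d3, and Tsc22d3 with Nr3c1. In shBicd2 the highest mean was that of Serpina6, at 59.7 ± 34.8 FPKM (SD, n = 3), carried by sh1. The tested genes whose values lay nearest to those of Nr3c1 over the 6 libraries, by root-mean-square difference of centred log2(FPKM + 1), were Ttc39b (0.033), Spred1 (0.062) and Flcn (0.078). Ttc39b measured 8.70, 6.18 and 9.56 FPKM with the scrambled hairpin against 4.72 (sh1), 5.98 (sh3) and 4.26 FPKM (sh6). Among the members Sgk1 was nearest to Nr3c1 (0.177) and Lpin1 farthest (0.835).

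**Figure D4:**
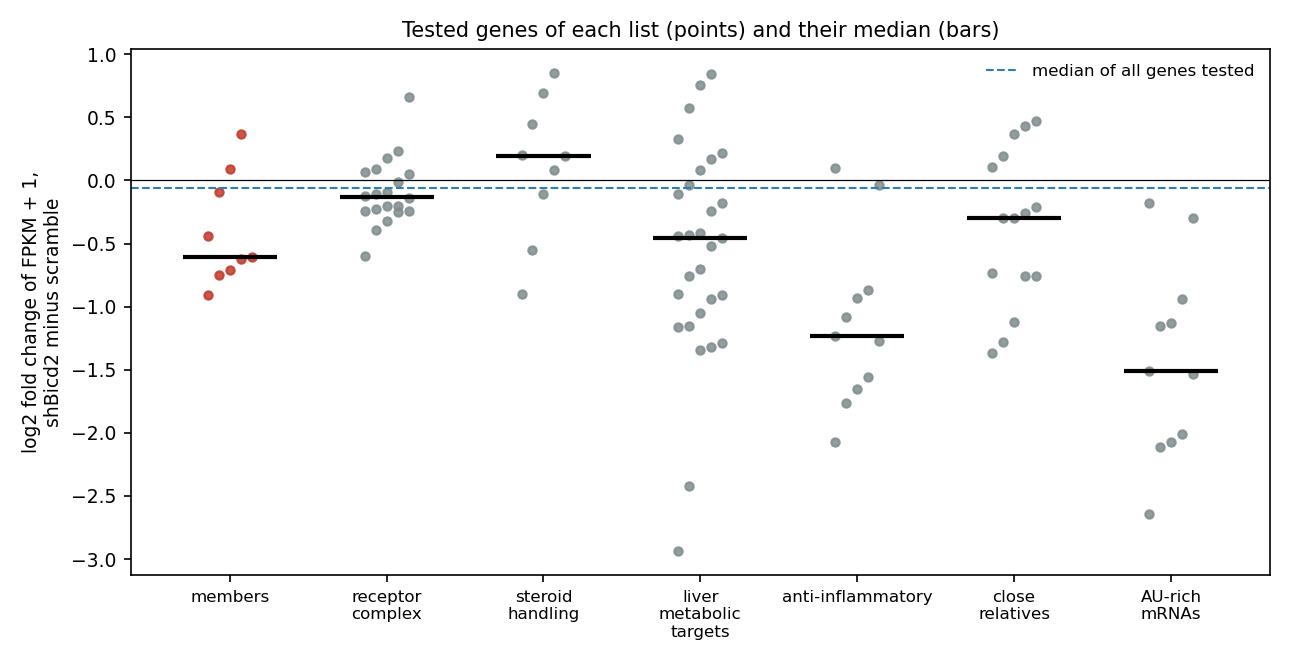
Log2 fold change of FPKM + 1, shBicd2 minus scramble, of the tested genes of each list (points), with the median of each list (bars) and of all genes tested (dashed line, -0.06). Medians of the anti-inflammatory genes (-1.23) and AU-rich mRNAs (-1.51) lie below that of the members (-0.61), and the receptor complex (-0.13) is close to the dashed line.

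Markers of the remaining liver cell types were summed in the same way. Beside the single markers named here, 18.7% of all genes tested were lower and 5.7% higher with no overlap. The 6 endothelial markers summed to 18.0 to 22.4 FPKM in scramble and to 12.9 to 17.5 FPKM in shBicd2, but only Lyve1 and Pecam1 had lower means, and Stab2, Clec4g, Kdr and Oit3 had higher ones. The 6 stellate cell markers summed to 27.5 to 36.8 and to 16.5 to 25.5 FPKM, with 5 lower means, and only Dcn (17.7 and 9.56 FPKM) did not overlap between groups. The 7 Kupffer cell markers had overlapping sums, 72.1 to 99.4 and 45.7 to 97.8 FPKM, with 6 lower means. Only Adgre1 of them was lower with no overlap (2.82 and 1.44 FPKM). Sums of the T and NK cell markers (6 of 7 in the table) also overlapped, at 1.98 to 3.20 and 2.41 to 3.75 FPKM. They were mostly Nkg7, and the rest lay below the filter of a mean of 1 FPKM. Of these 6, 1 had a lower mean, and Cd3e was higher with no overlap, at 5 to 10 reads a library. The cholangiocyte markers (4 of 5 in the table) summed to 41.5 to 67.2 FPKM in scramble and to 135 FPKM in sh1, of which Spp1 made 132 FPKM, and lay below the scramble range in sh3 and sh6. Sox9 was lower with no overlap, and Krt7 was under 0.1 FPKM on average. Nr3c1 is expressed in all of these cell types as well as in hepatocytes. Their part in the difference of Nr3c1 was not tested.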

How the data were processed

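Per the labels' protocols, Trizol-purified liver RNA went into TruSeq libraries for the NovaSeq. The submitters' processing notes name HISAT2 2.0.5, featureCounts 1.5.0-p3 and the mm10 genome. No source used here gives the annotation, strand or multi-mapping settings. Gene by gene, the authors deposited FPKM, and no counts were used other than those recovered from them. Column names give the group but not the labelled replicate, and there were 0 columns of other samples.

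The steps in the FPKM values gave each library's depth, with exon lengths from GENCODE M21: 97.6% to 99.4% of values below 50 reads lay within 0.02 of a whole read, and 98.2% of matched genes were whole in all 6 libraries. Lpin1 was not, as its deposited length differs from that annotation, so no reads are given for it.

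The fit took genes averaging 1 FPKM or more, as log2(FPKM + 1) with limma 3.58.1 in R 4.3.3 (eBayes with trend), with two-sided Benjamini-Hochberg adjustment over all 10152 genes and a threshold of 0.05; the pseudocount understates the change of low genes. The limma fit was also tried on simulated normal values. Those held no outlying library such as sh1, so the trial does not cover that feature of the data. Single genes were also compared by exact permutation (scipy 1.17.1), and figures drawn with matplotlib 3.10.9.

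The members and lists were chosen with earlier results of these data known. Named were all members, the 3 genes of smallest p in each list, and Per1, Fkbp4, Dusp1, Tat, Igfbp1, Angptl4 and Pck1, and Tnf for its element, picked after their values were seen. Alternatives were other pseudocounts, filters, scalings and weights, and each library left out. A voom fit of recovered reads was added after seeing the data.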

Additional observations from a re-analysis of the deposited data

How the results depend on the processing

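No member passed the adjusted threshold under any alternative other than array weights, which called 3 members and 2709 genes; leaving out sh3 called 289 genes (without any other library 0) and 0 members. With array weights the median of the members was -0.29. Below an unadjusted p of 0.05 were 4 members, all lower, beside 2584 lower and 1602 higher genes of the 10152. Median-of-ratios size factors left 1 such member, beside 874 lower genes. Over the libraries left out the number ran from 0 (Sc5 out, 699 lower genes) to 5 (sh3 out, 1540 lower genes, or 15.2%). The median of the members ran from -0.73 (without sh3) to -0.23 (without sh1) over the libraries left out. The TPM scale moved the median of all genes from -0.06 to -0.16, and size factors to 0.01. Nr3c1, Fkbp5, Sgk1, Klf9 and Zfp36 stayed negative under every alternative that could be run. Hsd11b1 turned to -0.00023 on the TPM scale and -0.03 with array weights, and ran from -0.15 to 0.27 over the libraries left out. Tsc22d3 turned to 0.12 with array weights (-0.23 to 0.16 over the libraries left out), Serpina6 to -0.11 (-0.07 to 0.64), and Angptl4 to 0.0078. Lpin1 ran from -1.39 to 0.07 over the libraries left out. Per1 ran from -1.28 to 0.10 (without sh1). Tat turned to -0.01 on the TPM scale and ran from -0.31 (without sh3) to 0.56, with -0.0076 without sh6. The causes were not tested. Voom on recovered reads called 0 genes and gave Nr3c1 at -0.66; it has no value for Lpin1, nor has a mean of at least 5 FPKM for Sgk1. No paired analysis was possible because the columns carry no labelled replicate number, so the replicate block was not run.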

Other observations

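The mineralocorticoid receptor gene Nr3c2, whose product binds the same steroids, measured 0.964, 0.577 and 0.877 FPKM with the scrambled hairpin against 1.41 (sh1), 0.669 (sh3) and 0.310 FPKM (sh6). It was too low for the fit, and its shBicd2 values spanned the scramble range. Srd5a1, a reductase that inactivates glucocorticoids, measured 5.53, 8.45 and 6.54 FPKM with the scrambled hairpin against 23.8 (sh1), 9.02 (sh3) and 6.85 FPKM (sh6), high in sh1 as Serpina6 and Fkbp4 were (limma adjusted p = 0.454). The transcription factor gene Cebpd, a partner of the receptor at acute phase genes, averaged 20.5 FPKM in scramble, against 3.71 (sh1), 23.9 (sh3) and 10.9 FPKM (sh6; adjusted p = 0.432). These genes were picked after their values were seen.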
